A study of Mus musculus with 8 samples.

Results

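Macrophages of the medium-size tumor were 214 of the 2812 cells in that tumor, and of the 4345 cells of the whole series. They were chosen by their own counts. A cell was taken as a macrophage when at least 1 UMI (unique molecular identifier, 1 captured mRNA molecule) was found for 5 or more of 11 myeloid markers, Lyz2, C1qa, C1qb, C1qc, Cd68, Csf1r, Adgre1, Mrc1, Cd14, Fcgr3 and Ms4a7. The cell also had to show fewer than 4 of 11 epithelial markers, Cdh1, Cldn7, Cldn4, Cldn3, Elf3, Muc1, Krt18, Krt8, Krt7, Tspan8 and Spint2. The levels of these 22 genes were therefore used in the choice and are given only as a description.

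The series holds single-cell RNA counts of 2 pancreatic ductal adenocarcinomas from untreated KPC mice, 1 tumor of medium size and 1 of large size. These mice carry, beside other engineered sequence, a Trp53 allele (R172H) behind a lox-stop-lox cassette, and Cre recombinase driven by the Pdx-1 promoter removes the cassette in pancreatic cells, so the mutation is aimed at pancreatic cells and not at the macrophages described here. Both tumors share this genotype, were dissociated with enzymes and passed through the Chromium 3′ kit (v2) of 10x Genomics. The labels give 4 technical replicates per tumor, pooled in 1 table each, so every value below comes from 1 tumor and has no replicate error. Age and sex of the animals are not given in the sources used here. No p-value was computed, since cells of 1 tumor are not replicates, and the 95% intervals in brackets (exact Poisson for levels, exact binomial for shares, exact conditional for ratios) cover counting error only.

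The 214 macrophages made up 7.61% (6.66% to 8.65%) of the cells and 4% of the UMIs of their tumor. They held 811961 UMIs in all, with a median of 3496.5 UMIs (range 2713 to 8650) and 1319.5 genes per cell. The other cells were 2308 with 4 or more epithelial markers and fewer than 5 myeloid markers, 187 with neither marker set and 103 with both. The 103 cells with both sets, which had a median of 6528 UMIs and up to 47440, were left out of the comparison. The remaining 2495 cells, with a median of 5745 UMIs, are called the compared cells. Levels are UMIs per 1000000 UMIs of a group (CPM), and 3 UMIs in the macrophages, the limit set for a count of 0, correspond to 3.69 CPM. A single barcode among the macrophages also occurs in the table of the large tumor, out of 5 shared barcodes.

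Most macrophages lay well inside the rule. Exactly 5 myeloid markers were seen in 15 of them, and exactly 3 epithelial markers in 28, while 52 cells showed no epithelial marker. The 15 cells at the lower edge had 10582 CPM of Lyz2, 2205 of Tyrobp and 2057 of Ctss, and the 10 cells just outside, with 4 myeloid markers, had 14302, 2409 and 2165. The 28 cells with 3 epithelial markers had 209 CPM of Krt8 and 69.8 CPM of Epcam, against 655 and 387 in the 7 cells with 4 such markers. Allowing only 1 epithelial marker lowered the share to 4.69%, and dropping the epithelial limit raised it to 11.3%.

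**Figure D1:**
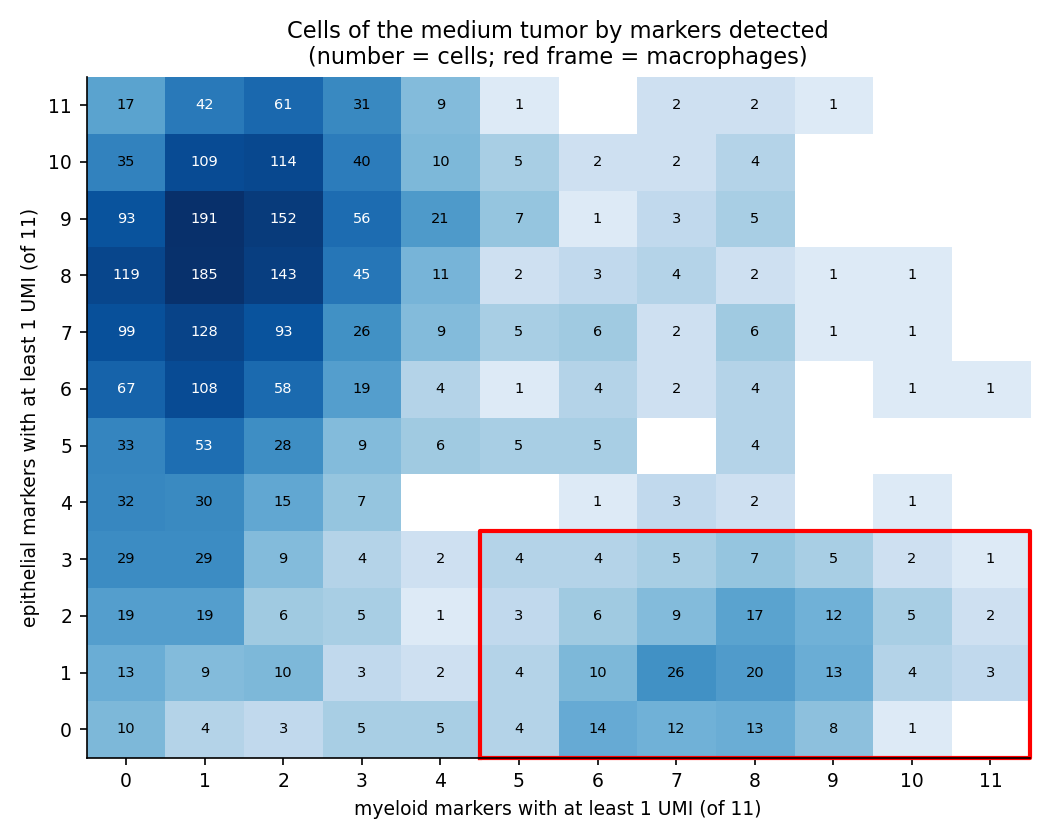
Cells of the medium tumor by the number of myeloid markers (horizontal axis, 0 to 11) and epithelial markers (vertical axis, 0 to 11) with at least 1 UMI. Each number counts cells, darker squares hold more, and the red frame encloses the 214 macrophages.

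Macrophages are phagocytes that engulf particles and dying cells, break them down in lysosomes, show peptides on MHC class II molecules and signal to other cells through chemokines and cytokines. In pancreatic carcinoma they are among the most common immune cells, come from blood monocytes as well as from tissue-resident cells, and are known for both inflammatory and tissue-repair gene programs. Growth factors such as Csf1, read by the receptor Csf1r, keep them alive.

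The label was checked against markers of other cell types, lists other than the macrophage and epithelial ones, whose genes the rule used. NK and endocrine markers (6 and 4 genes) were all at 0 UMIs, which allows up to 3.69 CPM. Of the 9 dendritic cell markers 6 were at 0 and the list summed to 8.62 CPM, and the 7 T cell markers found in the table also summed to 8.62 CPM. B cell, mast cell and acinar markers summed to 3.69, 3.69 and 7.39 CPM, pericyte markers to 18.5 and hemoglobin and other red cell genes to 34.5. Each of these sums was thus at or below 34.5 CPM, and red cell genes had 166 CPM in the cells with epithelial markers. Granulocyte markers summed to 207 CPM, led by S100a8, against 72.9 CPM in the cells with neither marker set and 90 CPM in those with epithelial markers. They reached 308 CPM in the Pf4 cluster of macrophages described further on, 4 macrophages showed 3 or more of the 7, and their part in the results was not tested. Fibroblast markers summed to 161 CPM, against 7499 CPM in the cells with neither marker set, and endothelial markers to 45.6 CPM against 550.

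UMIs of carcinoma genes were also found in macrophages, and whether they came from free RNA, from doublets or from the macrophages was not tested. A list of 16 abundant carcinoma genes, among them Clu, Wfdc2, Ly6d and Cystm1, summed to 1564 CPM in macrophages and 26440 CPM in the compared cells, a ratio of 0.0592, and each of the 16 lay between 0.025 and 0.206. Clu, a secreted chaperone, was highest with 750 CPM in macrophages. Lyz2 in turn had at least 1 UMI in 45.5% of the cells with epithelial markers, at 99.4 CPM against 18873 CPM in macrophages. Where a share of macrophages with a UMI is set against other cells, it is therefore given beside the share in the cells with epithelial markers, with every cell thinned to 2500 UMIs. Counts and shares within the macrophages and their clusters are not thinned.

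Over all genes with 100 or more UMIs in the macrophages and compared cells together, 859 of 9611 (8.94%) were at least 2 times higher in macrophages and 2637 (27.4%) were at 0.5 times or less, with a median ratio of 0.748. With TMM scaling, which moved the median log2 ratio by 0.29, these counts became 1206 and 2033. A gene found almost only in macrophages passes the 100 UMIs through them alone, so members of the gene lists are counted only where the compared cells alone had 100 UMIs. Over all genes with that number, 731 of 9426 (7.76%) were over 2 times higher and 2633 (27.9%) at 0.5 times or less, while 64.3% lay in between, with a median ratio of 0.738. Among the 20 highest ratios outside the rule, over genes with at least 200 UMIs in macrophages, were those of Ms4a6c, Prtn3, Ctss, Wfdc17, Cfp, Fcgr2b, Ccl6, Clec4n, Osm, Ccl9, Tyrobp, Bcl2a1b, Cd74, F10, Fcer1g, Mmp12, Ms4a6d, Cybb and Chil3. The 20 ran from 240 (158 to 418) for the membrane protein gene Ms4a6c, at 270 CPM, down to 73.7 (67.6 to 80.5) for Chil3. Bcl2a1b, a survival factor of the Bcl2 family, has near-identical copies in the mouse genome, as Lyz2 has in Lyz1, so their values are uncertain. By level, the 10 highest genes outside ribosomal proteins were Fth1, Ftl1, Lyz2, Tmsb4x, Malat1, Cxcl2, Ccl6, Actb, Cd74 and Spp1.

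Genes of antigen display stood high. Of 10 MHC class II genes, 6 reached 100 UMIs and all 6 were over 2 times higher in macrophages, with a median ratio of 64.6. Cd74, the invariant chain that guides class II molecules to the endosome, had 5329 CPM (5171 to 5490) against 68.2 CPM. The class II chains H2-Aa, H2-Ab1 and H2-Eb1 had 2718, 2574 and 2073 CPM against 40.8, 42.8 and 31.8 CPM. H2-Aa had a UMI in 67.8% of the thinned macrophages and 6.15% of the thinned cells with epithelial markers (70.6% and 15.3% before thinning). H2-DMa and H2-DMb1, which help load peptides, had 413 and 292 CPM. The other 4 were low, with 23.4 CPM for H2-DMb2, 7.39 CPM for the class II activator Ciita, and 3.69 and 2.46 CPM for H2-Ob and H2-Oa.

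Class II levels varied widely from cell to cell. The summed CPM of H2-Aa, H2-Ab1, H2-Eb1 and Cd74 had a median of 7144, quartiles of 803 and 21766 and a maximum of 71384, and 24 of the 214 cells had none of the 4. These genes varied together, as H2-Aa had a Spearman correlation over the 214 cells of 0.914 with H2-Ab1, 0.92 with H2-Eb1 and 0.909 with Cd74, all within 1 pooled table and with shared cell depth. With H2-DMa and H2-DMb1 it was 0.629 and 0.613, but both had far lower levels, and many cells without a UMI can lower such a value. H2-Ab1, H2-Aa and H2-Eb1 lie side by side on chromosome 17, at 34257689 to 34269419, 34282744 to 34287823 and 34305867 to 34316674 (GRCm38, GENCODE M21).

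The promoter windows of H2-Aa, H2-Eb1 and H2-DMb1 are shown to compare their letters (RefSeq, GRCm38.p6, 250 bases before to 50 after the start site, 5′ to 3′ on the strand of the gene). H2-Aa and H2-Eb1 varied together, while H2-DMb1 had a lower correlation at a lower level. The capitals mark TGATTGG, letters of the Y box of class II promoters, which were searched on both strands and are held by 7.82% of the 32851 promoter windows. They begin 50, 61 and 63 bases before the start site of H2-Aa, H2-Eb1 and H2-DMb1, all on the strand of the gene, while neither of the 2 windows of H2-DMa holds them. The windows are H2-Aa at chr17:34287774-34288073 (minus strand), H2-Eb1 at chr17:34305617-34305916 (plus strand) and H2-DMb1 at chr17:34152941-34153240 (plus strand). A match of letters is a description and does not show binding.
H2-Aa: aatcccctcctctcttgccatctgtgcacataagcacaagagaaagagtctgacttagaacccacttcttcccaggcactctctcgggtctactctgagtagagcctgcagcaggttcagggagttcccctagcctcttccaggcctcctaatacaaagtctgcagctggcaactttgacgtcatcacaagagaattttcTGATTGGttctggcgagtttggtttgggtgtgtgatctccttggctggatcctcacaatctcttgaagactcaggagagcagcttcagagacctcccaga
H2-Eb1: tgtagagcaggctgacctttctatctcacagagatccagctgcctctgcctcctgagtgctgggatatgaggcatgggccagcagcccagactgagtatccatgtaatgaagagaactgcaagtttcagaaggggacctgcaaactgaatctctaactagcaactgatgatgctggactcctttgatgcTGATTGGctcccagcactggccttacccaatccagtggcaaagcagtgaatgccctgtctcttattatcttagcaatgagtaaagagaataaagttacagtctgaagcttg
H2-DMb1: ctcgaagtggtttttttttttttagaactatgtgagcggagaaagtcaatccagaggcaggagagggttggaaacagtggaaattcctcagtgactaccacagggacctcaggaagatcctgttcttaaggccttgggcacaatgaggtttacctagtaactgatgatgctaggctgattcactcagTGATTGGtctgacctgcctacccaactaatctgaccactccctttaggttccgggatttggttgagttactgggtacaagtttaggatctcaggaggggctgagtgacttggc

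Receptors for antibody and their signaling chains were high in macrophages. Of this list of 9, 4 genes had 100 UMIs in the compared cells, all 4 over 2 times higher in macrophages, with a median ratio of 44.6. Tyrobp, an adaptor that passes on signals of many myeloid receptors, had 2843 CPM against 35.6 and was seen in 98.6% of thinned macrophages against 5.72% of thinned cells with epithelial markers (100% and 14.4% before thinning). Fcer1g, the common chain of activating Fc receptors, had 2069 CPM against 27. The inhibitory receptor Fcgr2b had 445 CPM against 4.52, a ratio of 97.4 (77.3 to 126). Lyn, a kinase acting next to these receptors, had 145 CPM against 11.4.

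Receptors for uptake were led by Clec4n, a lectin that binds fungal sugars, with 899 CPM (835 to 967) against 10.1. Trem2, a lipid-sensing receptor, had 293 CPM against 7.97, and the scavenger receptors Marco and Msr1 had 236 and 218 CPM against 1.56 and 1.18. Of the 18 uptake genes in the table, 7 had 100 UMIs in the compared cells, of which 4 were over 2 times higher and none was at 0.5 times or less, with a median ratio of 2.47. Inhibitory and costimulatory receptors included Lilrb4a with 443 CPM against 6.57, Sirpa with 129 against 6.78, Cd86 with 116 against 1.4 and Pirb with 98.5 against 1.18. Of the 12 members in the table, 3 had 100 UMIs in the compared cells, 2 of them over 2 times higher, while Pdcd1lg2 had 1 UMI and Slamf7 had 0 UMIs, which allows up to 3.69 CPM.

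All 20 lysosomal genes reached 100 UMIs in the compared cells, with 17 over 2 times higher, none at 0.5 times or less and a median ratio of 3.73. Ctss, a protease that trims the invariant chain, had 3046 CPM against 22.8, a ratio of 133 (120 to 148). The broad lysosomal genes Ctsd, Psap and the protease inhibitor Cst3 had 2253, 2049 and 1940 CPM but also 415, 326 and 609 CPM in the compared cells. Ctss thus stood apart from the other members, whose ratios ran from 1.14 to 11.4.

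The rule genes C1qa, C1qb and C1qc, which encode the chains of C1q and lie together on chromosome 4 (136880129 to 136898803, GRCm38), had 2727, 3104 and 2137 CPM. Among 11 further complement genes, 6 had 100 UMIs in the compared cells, with 2 over 2 times higher and 4 at 0.5 times or less. Their median ratio was 0.476, and over all genes 7.76% were higher and 27.9% at 0.5 times or less. The lowest ratio was 0.455, and TMM scaling, which adds 0.29 to log2 ratios, takes all 4 above 0.5. Cfp, properdin, which stabilizes the alternative pathway convertase, had 578 CPM against 4.84. C4b had 182 CPM against 38.8, the integrin chain Itgam 159 against 2.37 (the larger of 2 rows of that symbol), and the C5a receptor C5ar1 135 against 2.96. The central component C3 went the other way, with 56.7 CPM against 125. The protease gene C2, also among the 4, had 2 UMIs, 2.46 CPM against 8.07, a ratio of 0.455 with an interval (0.0366 to 1.12) that includes 1.

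**Figure D2:**
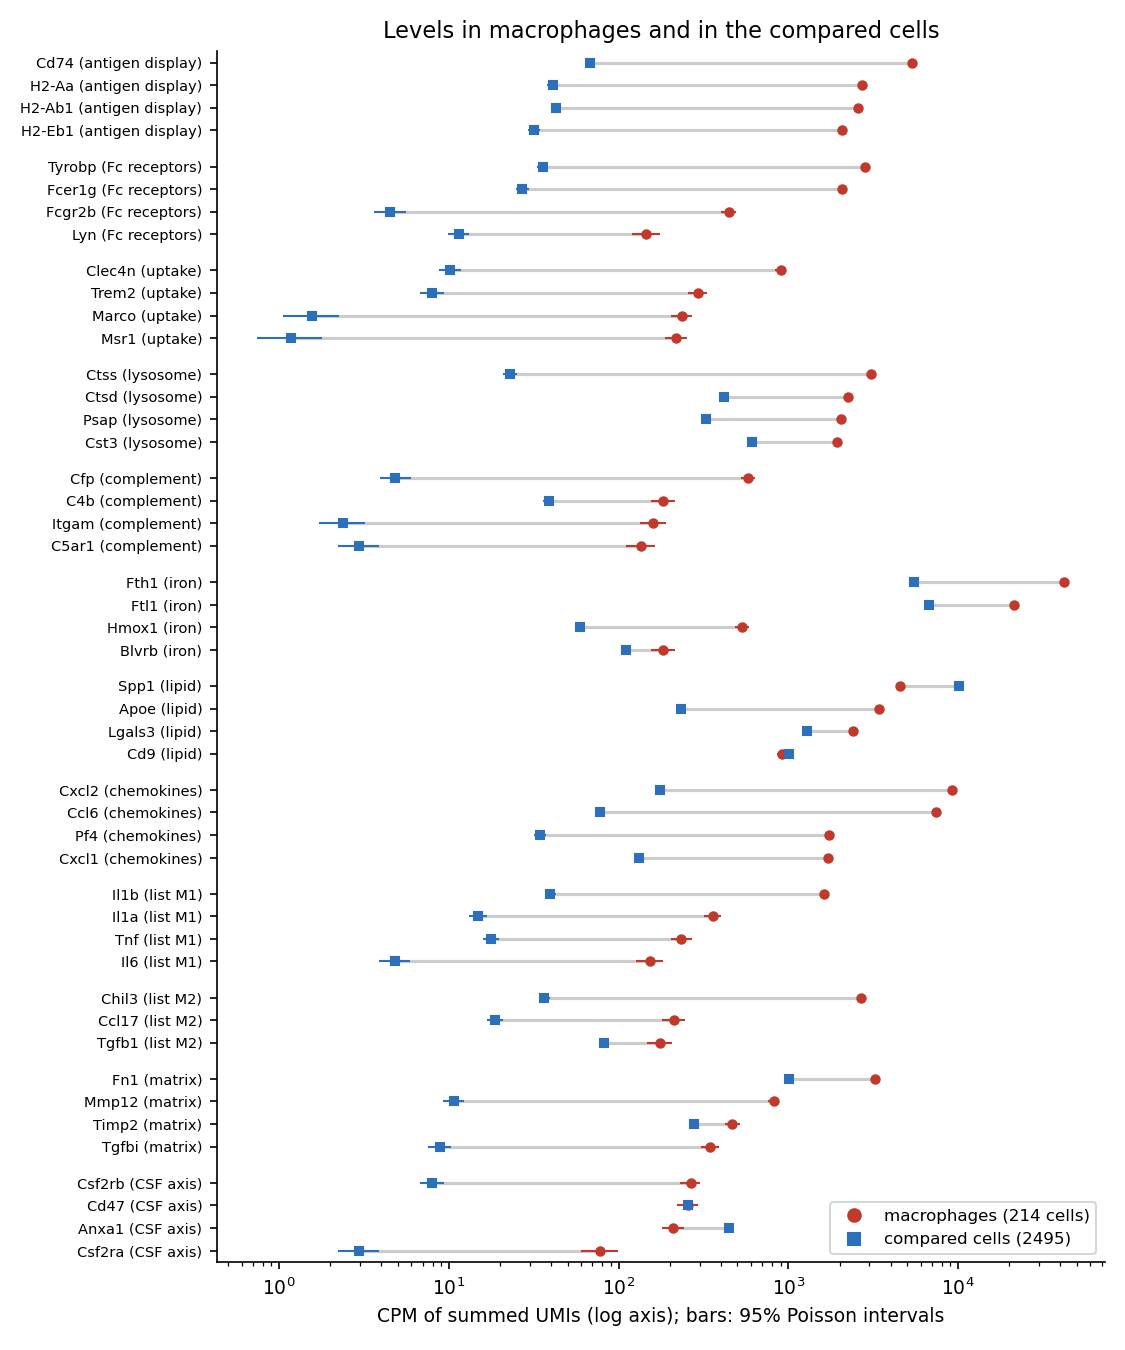
CPM (horizontal log axis) of 3 or 4 of the highest members of 12 gene lists in the 214 macrophages (red circles) and the 2495 compared cells (blue squares), with 95% Poisson intervals. Class II, Fc receptor and uptake genes lie far apart between the groups, while Spp1, Cd9, Cd47 and Anxa1 lie at or below the level of the compared cells.

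Iron storage took a large part of the transcriptome. Fth1 and Ftl1, the ferritin heavy and light chains, had 41806 and 21225 CPM in macrophages against 5479 and 6749 in the compared cells, ratios of 7.63 and 3.15. Single macrophages ranged from 7708 to 189137 CPM of Fth1 with a median of 30813. Heme oxygenase Hmox1, which frees iron from heme, had 536 CPM against 59.2, and Blvrb, the next enzyme of heme breakdown, 182 against 110. Of the 9 iron genes 7 reached 100 UMIs, with 3 over 2 times higher, 1 at 0.5 times or less and a median ratio of 1.67. The shares over all genes were 7.76% and 27.9%. Ferritin genes have processed copies in the genome, so some of their reads may have been assigned elsewhere.

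Lipid-handling genes were mixed, with 8 of the 14 that reached 100 UMIs over 2 times higher and 1 at 0.5 times or less. Their median ratio was 3.18, and the shares over all genes were 7.76% and 27.9%. Apoe, the lipoprotein component that carries cholesterol out of cells, had 3394 CPM against 234 and a UMI in 57% of thinned macrophages against 27.1% of thinned cells with epithelial markers (59.8% and 45.1% before thinning). Its level was uneven, as 86 of 214 cells had none and the 22 highest cells held 63% of the summed per-cell level. Lgals3, a galectin, had 2416 CPM against 1292, and the tetraspanin Cd9 had 916 against 1011. Apoc1, another apolipoprotein gene, had 1 UMI. Spp1, the secreted matrix protein osteopontin, had 4552 CPM (4406 to 4701) in macrophages and 10061 CPM in the compared cells. The ratio was 0.453 (0.438 to 0.467), above the 0.025 to 0.206 of the 16 carcinoma genes. Its log2 ratio was -1.14, and TMM scaling, which adds 0.29 to log2 ratios, takes the ratio above 0.5. Macrophages held 1.85% of all Spp1 UMIs of the tumor and cells with epithelial markers 89.8%, against 4% and 87.5% of all UMIs, and the median macrophage had 2157 CPM with a maximum of 41965.

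Chemokines were among the most abundant transcripts. Of 23 chemokine genes 16 had 100 UMIs in the compared cells, and 13 of these were over 2 times higher in macrophages and 2 at 0.5 times or less, with a median ratio of 15.4. Cxcl2, which attracts neutrophils, had 9193 CPM (8985 to 9404) against 175, and macrophages held 59.3% of its UMIs in the tumor. It had a UMI in 93.5% of thinned macrophages against 21.2% of thinned cells with epithelial markers (94.4% and 42.9% before thinning). Ccl6 had 7382 CPM against 77.3. Pf4, the platelet chemokine also made by macrophages, had 1724 CPM against 34.4. Cxcl1, another neutrophil attractant, had 1705 CPM against 132, and here cells with epithelial markers held 43.7% of the UMIs and macrophages 32%.

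Ccl9 had 1378 CPM against 16.6, and Wfdc17, a small secreted protein that is no chemokine but whose gene lies in the same stretch of chromosome 11, had 4242 CPM against 34.5. On that stretch (GRCm38) Ccl9 lies at 83572919 to 83578636, Ccl6 at 83587882 to 83593087, Ccl3 and Ccl4 between 83647844 and 83664683, and Wfdc17 at 83703991 to 83706268. Over the 214 cells the Spearman correlation was 0.482 for Ccl6 with Wfdc17 and 0.458 for Ccl3 with Ccl4. Low members were Ccl22 and Cxcl12, each with 2.46 CPM, and Ccl20 and Cxcl9 with 0 UMIs. Cxcl9, a T cell attractant induced by interferon gamma, had 0.269 CPM in the compared cells, and was not detectable in macrophages at this depth. Of the chemokine receptors, Ccrl2 and Ccr1 had 203 and 139 CPM, and Ccr2, the receptor for Ccl2, 43.1 CPM.

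The promoter windows of Cxcl2 and Cxcl1, neighbours on chromosome 5 and both neutrophil attractants, are shown because both hold GGAATTTCC (capitals), letters of an NF-kB site searched on both strands and held by 0.317% of the 32851 windows. The letters begin 96 bases before the start site of Cxcl2 (chr5:90903649-90903948, plus strand) and 70 before that of Cxcl1 (chr5:90890995-90891294, plus strand), and are in neither the Ccl6 nor the Il1b window. Windows and build are those of RefSeq, GRCm38.p6.
Cxcl2: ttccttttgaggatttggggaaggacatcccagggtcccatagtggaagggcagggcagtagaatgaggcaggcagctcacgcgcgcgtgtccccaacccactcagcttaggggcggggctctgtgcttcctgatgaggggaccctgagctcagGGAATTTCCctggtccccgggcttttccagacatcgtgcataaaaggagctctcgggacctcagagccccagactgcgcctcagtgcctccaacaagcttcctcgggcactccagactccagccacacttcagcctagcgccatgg
Cxcl1: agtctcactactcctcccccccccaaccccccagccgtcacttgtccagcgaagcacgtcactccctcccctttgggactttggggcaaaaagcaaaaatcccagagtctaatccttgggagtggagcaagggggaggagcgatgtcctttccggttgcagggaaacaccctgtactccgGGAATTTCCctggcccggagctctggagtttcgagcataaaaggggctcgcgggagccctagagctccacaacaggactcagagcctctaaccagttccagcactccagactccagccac

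Genes often used to sort macrophages into inflammatory (M1) and repair (M2) states were both detected. In the M1 list, 6 of the 7 genes with 100 UMIs in the compared cells were over 2 times higher, and in the M2 list 4 of 6, with median ratios of 3.6 and 6.74. Chil3, a chitinase-like lectin of the M2 list, had 2689 CPM (2577 to 2804) against 36.4, and Il1b, an inflammatory cytokine of the M1 list, had 1628 CPM (1542 to 1718) against 39.5. Chil3 had a UMI in 49.5% of thinned macrophages against 4.77% of thinned cells with epithelial markers (53.7% and 12.4% before thinning), and Il1b in 69.2% against 8.02% (72.9% and 17.9%). Both genes were seen in 84 of the 214 cells (39.3%, 32.7% to 46.1%), Chil3 alone in 31, Il1b alone in 72 and neither in 27, and the product of their separate shares is 39.2%. Their levels over cells had a Spearman correlation of -0.0488. The 22 cells highest in Chil3 held 62% of its summed per-cell level, and 99 cells had none.

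The other members of both lists were uneven. Il1a, Tnf and Il6 had 358, 234 and 153 CPM against 14.9, 17.8 and 4.79. Nos2, the inducible nitric oxide synthase, had 3 UMIs, all in 1 cell, and Il12b had 0 UMIs, which allows up to 1.4% of cells to show a UMI. Retnla, another gene of the repair state, had 113 UMIs from 6.07% of macrophages (1.3% of the cells with epithelial markers, 4.67% and 0.477% after thinning), with up to 13388 CPM in a cell. Ccl17, a T cell attractant, had 212 CPM from 5.61% of macrophages (2.69% of the cells with epithelial markers, 5.14% and 0.867% after thinning), the same CPM as the cells with neither marker set. Tgfb1 had 175 CPM against 82.4, but its log2 ratio to the cells with neither marker set alone was -0.24. Il10, an anti-inflammatory cytokine, had 3 UMIs, 3.69 CPM.

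Among cytokines and growth factors, 8 of the 15 with 100 UMIs in the compared cells were over 2 times higher and 3 were at 0.5 times or less. Their median ratio was 2.14, and the shares over all genes were 7.76% and 27.9%. Osm, an Il6-family cytokine, had 362 CPM against 4.25, and macrophages held 64.1% of its UMIs. The epidermal growth factor ligand Areg had 445 CPM against 204 and was seen in 24.8% of thinned macrophages against 27.6% of thinned cells with epithelial markers (29% and 46.9% before thinning). The interleukin 1 antagonist Il1rn had 286 CPM against 36.8. Wnt5a and Pdgfc had 3 and 2 UMIs.

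Receptors for growth factors were found in macrophages. Of the 10 genes of this axis outside the rule 7 had 100 UMIs in the compared cells, with 1 over 2 times higher, 3 at 0.5 times or less and a median ratio of 0.997, against 7.76% higher and 27.9% at 0.5 times or less over all genes. Csf2rb and Csf2ra, the chains of the GM-CSF receptor, had 265 and 77.6 CPM against 7.97 and 2.96, and the rule gene Csf1r had 260 against 7.64. Csf1 had 13.5 CPM in macrophages, 8.39 in the cells with epithelial markers and 43.2 in those with neither marker set. The cells with epithelial markers held 73% of its 204 UMIs, below their 87.5% of all UMIs of the tumor. Il34, the second Csf1r ligand, had 2.46 CPM in macrophages and 93.8% of its UMIs in cells with epithelial markers. Cx3cl1, the ligand of Cx3cr1, had 0 UMIs in macrophages and 94% in those cells, and Csf2 had 0 UMIs in macrophages. Cd47, the signal against phagocytosis read by Sirpa, was level at 255 against 257 CPM, and Anxa1, an annexin that dampens inflammation, had 209 CPM against 446.

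Transcription factors of the myeloid lineage followed. Cebpb, a factor of myeloid development and inflammation, had 365 CPM against 65.4, the hypoxia factor Hif1a 223 against 79.5 and Klf4 377 against 225. Of the 12 factors of this list with 100 UMIs in the compared cells, 7 were over 2 times higher and 2 at 0.5 times or less. Their median ratio was 2.86, and the shares over all genes were 7.76% and 27.9%. Spi1, the master factor of myeloid cells, had 197 CPM against 3.23. Spic, a factor of red pulp macrophages, had 1 UMI.

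Of the matrix genes 13 reached 100 UMIs, with 6 over 2 times higher, 2 at 0.5 times or less and a median ratio of 1.68. Over all genes 7.76% were higher and 27.9% at 0.5 times or less, with a median of 0.738. Fn1, fibronectin, had 3239 CPM against 1009. The elastase Mmp12 had 820 CPM against 10.7 and was seen in 39.3% of thinned macrophages against 1.69% of thinned cells with epithelial markers (43.9% and 3.6% before thinning). Tgfbi had 346 CPM against 8.83, and the protease inhibitor Timp2 had 467 against 279. Of 10 genes of tissue-resident macrophages 2 had 100 UMIs in the compared cells, neither of them 2 times higher, as Gas6 had 45.6 CPM against 63.8 and the broadly expressed Sepp1 381 against 248. Below that number, F13a1 had 188 CPM against 1.18 and Folr2 48 against 0.215, and Cd209f had 0 UMIs in macrophages. Of 12 monocyte genes 6 had 100 UMIs in the compared cells, with 3 over 2 times higher and 2 at 0.5 times or less. The shares over all genes were again 7.76% and 27.9%. F10, a coagulation factor, had 404 CPM and S100a4 262 CPM, while S100a6, abundant in the carcinoma cells, had 1163 CPM against 11945.

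Of 13 interferon-induced genes 6 reached 100 UMIs and 5 were over 2 times higher. They were low apart from Ifitm3, a membrane protein that blocks virus entry, with 1520 CPM against 337. Isg15 and Irf7 had 43.1 and 28.3 CPM, Bst2 123, Usp18 had 1 UMI, and Ifit2 and Ifit3 were at 0 UMIs. Against the 187 cells with neither marker set alone, Ifitm3, Isg15 and Irf7 were lower in macrophages, with log2 ratios of -0.32, -0.81 and -0.59. Of 15 immediate early and stress genes 3 were over 2 times higher and 2 at 0.5 times or less, with a median ratio of 0.905, beside 7.76%, 27.9% and a median of 0.738 over all genes. Fos had 863 CPM against 1079 and Hspa1a 434 against 492, while Ier3 had 1689 against 344 and Junb 1164 against 621. Of the glycolysis genes 14 of the 15 that reached 100 UMIs lay within 2 times of the compared cells, as did 64.3% of all genes, among them Gapdh with 3052 against 2531, Ldha with 973 against 943, Aldoa with 902 against 627 and Pkm with 830 against 857. Slc2a3, a glucose transporter, had 1 UMI.

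The 214 cells were clustered among themselves, which gave 4 clusters, named here by a leading gene. The cells were grouped by these same counts, so the differences between clusters are a description and no test. The Pf4 cluster had 88 cells (41.1%), the Ear2 cluster 66 (30.8%), the Prg4 cluster 31 (14.5%) and the Ube2c cluster 29 (13.6%). Their median UMIs per cell were 3312, 3511.5, 3612 and 4394. The 16 carcinoma genes summed to 1739, 1658, 1414 and 1098 CPM in these clusters. Fibroblast markers were highest in the Pf4 cluster with 283 CPM and lowest in the Prg4 cluster with 25.1.

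The Pf4 cluster was led by Cd72, Lpcat2, Pf4, Ccl7, Dmbt1, Tmem37, Ms4a6b, Syngr1, Ms4a6d and Apoe. It held the highest C1q levels, with 4250 CPM of C1qa against 1763 in the other macrophages, a ratio of 2.41 (2.21 to 2.63). Pf4 had 3068 CPM against 875, Apoe 5760 against 1898 and Ccl7, a monocyte attractant, 1020 against 292. Apoe was uneven, as the 9 highest cells held 50.4% of its summed per-cell level in this cluster. The median cell had 1624 CPM of Apoe, and 26 of the 88 cells had none. Ccl2, the close relative of Ccl7, had 1078 against 525. Dmbt1 and Syngr1 are also carcinoma genes here, with 1140 and 79.1 CPM in the cells with epithelial markers, and their part in this list was not tested.

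The Ear2 cluster was led by Ear2, Atp6v0d2, Lpl, Car4, Rnase2a, Inhba, Mmp12, Hvcn1, Wfdc17 and Chil3. Lpl, which frees fatty acids from lipoproteins, had 475 CPM against 47.9 in the other macrophages, the proton pump subunit Atp6v0d2 221 against 16, and Inhba, a chain of activin, 700 against 140. Mmp12 had 1714 CPM against 426, Chil3 5283 against 1544 and Wfdc17 8542 against 2345. These sums rested on few cells, since the 7 highest held 46.7% of the summed per-cell level of Mmp12, 57.4% of Chil3 and 44.5% of Wfdc17. For Mmp12 the median cell had 659 CPM here and 0 in the other clusters. The median cell had 683 CPM of Chil3 and 3690 CPM of Wfdc17, against 3260 and 3931 in the Prg4 cluster, where Chil3 was seen in 87.1% of cells (62.1% in the Ear2 cluster). C1q was lowest here, with 1191 CPM of C1qa against 3404, a ratio of 0.35 (0.309 to 0.396). Fth1 was highest, with 61909 CPM against 32939. Chil3 and Mmp12, both high in this cluster by sum, had a Spearman correlation of only -0.0747 over all macrophages.

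**Figure D3:**
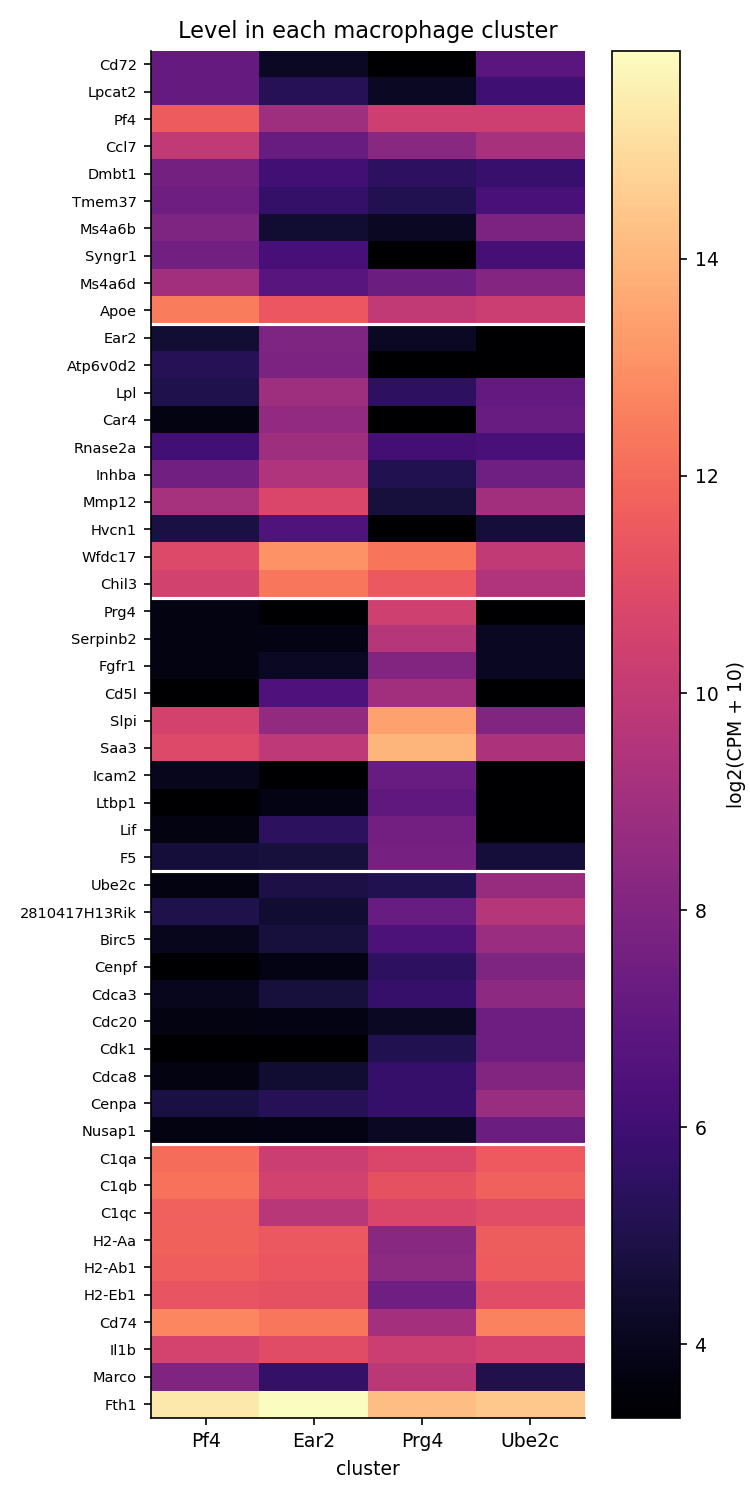
Level in each macrophage cluster, as log2(CPM + 10) with darker colors lower, for the 10 leading genes of the Pf4, Ear2, Prg4 and Ube2c clusters (blocks from top to bottom) and 10 further genes. C1q genes are darkest in the Ear2 column and the class II genes in the Prg4 column, while Il1b runs from 1255 to 2000 CPM over the 4.

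The Prg4 cluster was led by Prg4, Serpinb2, Fgfr1, Cd5l, Slpi, Saa3, Icam2, Ltbp1, Lif and F5. Prg4, a lubricating glycoprotein, had 160 UMIs in these 31 cells, 1339 CPM (1139 to 1563), and 1 UMI in the other 183. Saa3, an acute-phase protein, had 15931 CPM against 1297, and Slpi, an inhibitor of neutrophil elastase, 11572 against 852. The coagulation factor gene F5 had 192 CPM against 15.9 and the plasminogen activator inhibitor Serpinb2 761 against 4.33. Prtn3, a granule protease better known from neutrophil precursors, was seen in all 31 cells, at 1615 CPM against 277, and in 32.2% of the others. Over all macrophages it was seen in 38.3% after thinning, against 0.78% of the thinned cells with epithelial markers (42.1% and 1.65% before thinning). The scavenger receptor Marco had 870 CPM against 127, Adgre1 (F4/80) 310 against 60.7, Fn1 7070 against 2578, Il6 494 against 93.9 and Cxcl2 14893 against 8209.

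The same cells were low in class II genes. H2-Aa had 301 CPM (211 to 417) against 3135 in the other macrophages, a ratio of 0.0961 (0.0671 to 0.133), and Cd74 had 535 against 6156. None of the 4 class II genes was seen in 14 of the 31 cells (45.2%), against 5 of 88, 4 of 66 and 1 of 29 in the other clusters. The median summed class II level was 245 CPM here and 9998, 11975 and 15361 CPM there. Clec4n, Fcgr2b, Ctss and Mmp12 were also low, with 92, 75.3, 945 and 16.7 CPM against 1038, 508, 3408 and 959.

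**Figure D4:**
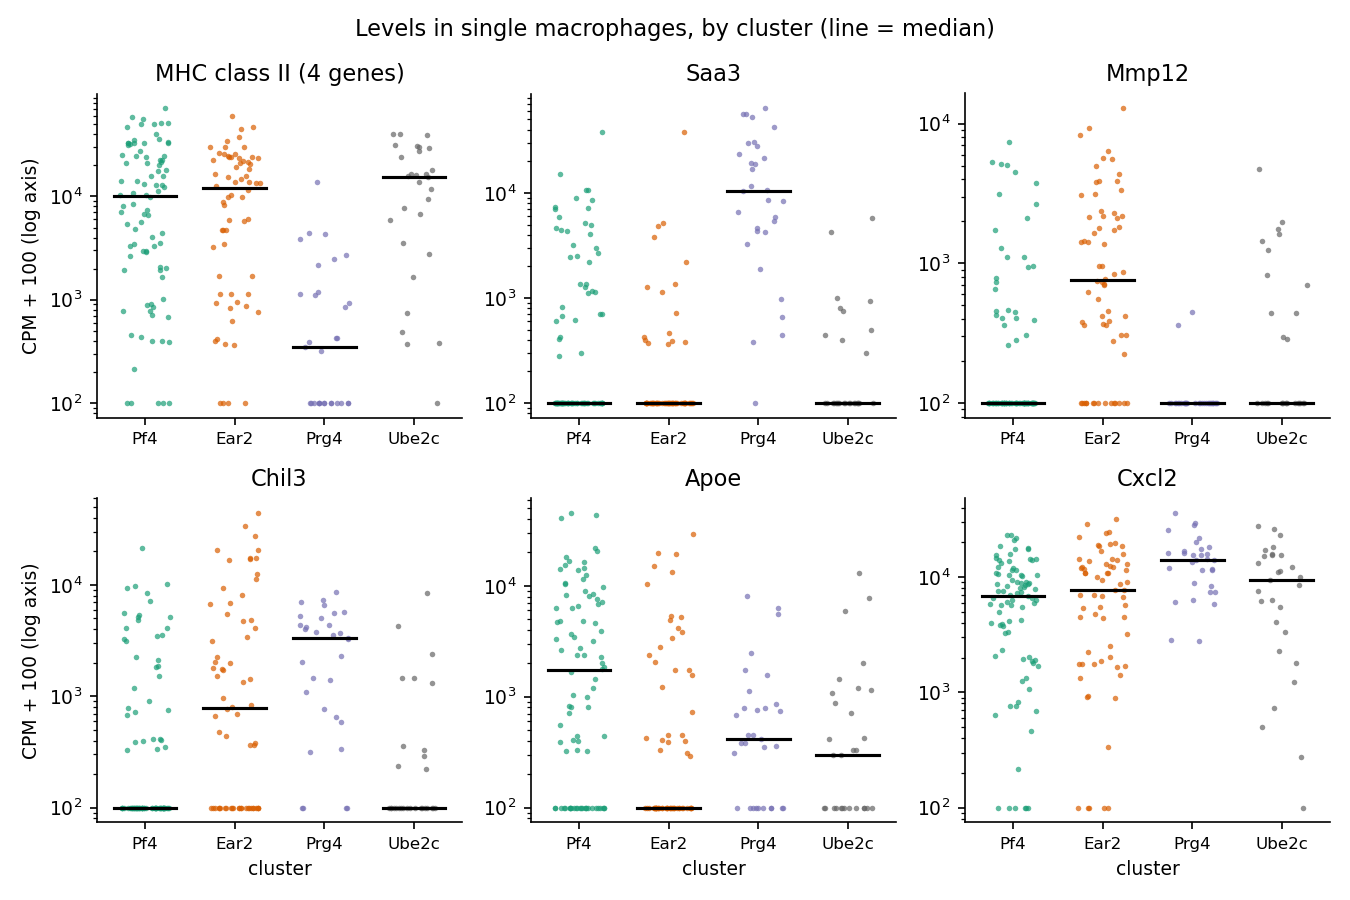
CPM + 100 (log axis) in each of the 214 macrophages, by cluster, for the summed class II genes (H2-Aa, H2-Ab1, H2-Eb1, Cd74), Saa3, Mmp12, Chil3, Apoe and Cxcl2, with the median as a line. Cells at the bottom of a panel have no UMI. Class II is low and Saa3 high in the Prg4 cluster, and Cxcl2 is present in nearly every cell.

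The Ube2c cluster was led by genes of cell division, Ube2c, 2810417H13Rik, Birc5, Cenpf, Cdca3, Cdc20, Cdk1, Cdca8, Cenpa and Nusap1. Of a list of 18 cycling genes, 3 or more were seen in 28 of these 29 cells (96.6%), against 4 of 88, 4 of 66 and 5 of 31 in the other clusters. The list summed to 3286 CPM in the Ube2c cluster and 812 CPM over all macrophages. After thinning, 15% (10.5% to 20.4%) of macrophages and 12.3% (11% to 13.7%) of the cells with epithelial markers showed 3 or more of the 18, intervals that overlap. Before thinning these shares were 19.2% and 29.4%. In the list, 16 of 18 genes lay within 2 times of the compared cells, as did 64.3% of all genes. Mki67, a proliferation marker, had 64 CPM against 21.6, and Mcm6, a subunit of the replication helicase, 14.8 against 32.9, while Birc5, Stmn1 and Ube2c had 88.7, 87.4 and 75.1 CPM against 60.6, 56.2 and 58.9. The cluster kept class II genes, with a median of 15361 CPM.

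The 4 clusters were stable to different degrees. At a resolution of 0.4 the Pf4 and Ear2 clusters fell together in 1 cluster of 155 cells, while 30 of 31 Prg4 cells and all 29 Ube2c cells stayed together. At 1.2 there were 5 clusters and the Pf4 cluster split, with 50 of its 88 cells together. With 20 principal components, 29 of the Prg4 and 23 of the Ube2c cells stayed together.

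The same rule found 68 macrophages in the large tumor, with a median of 778.5 UMIs per cell and 58448 UMIs in all. A cell with so few UMIs reaches 5 markers less easily, so the shares of the tumors are not compared, and 3 UMIs there correspond to 51.3 CPM. The 2 tables were made separately from 1 tumor each, and tumor and table cannot be told apart. Whether both were made with the same annotation and CellRanger version is not given in the sources used here, which limits every level set across them. Lyz2 was alike, at 18873 CPM in the medium and 18991 CPM in the large tumor. H2-Aa had 2718 and 1745 CPM, Cxcl2 9193 and 13345, Spp1 4552 and 11720, Ccl2 739 and 2361, Ccl7 574 and 1814 and Il6 153 and 496. Lower in the large-tumor macrophages were Chil3 with 2689 and 1215, Saa3 with 3451 and 1369, and Mmp12 with 820 and 137. Prtn3 had 474 CPM and 0 UMIs, which allows up to 51.3 CPM. Over all cells Chil3 had 156 and 208 CPM and Saa3 223 and 228, while Mmp12 had 46.4 and 18.3 and Prtn3 27.5 and 1.34. The compared cells of the tumors differed for these genes too, with 129 and 932 CPM of Lyz2, 40.8 and 150 of H2-Aa, 175 and 1293 of Cxcl2, 10061 and 17766 of Spp1, 47.9 and 283 of Ccl2 and 36.4 and 182 of Chil3. The ratio of macrophages to compared cells was lower in the large tumor for Cxcl2 (52.6 and 10.3), Ccl2 (15.4 and 8.4), H2-Aa (66.6 and 11.7) and Chil3 (73.7 and 6.77). It was higher there for Apoe (14.5 and 27.3) and Fn1 (3.21 and 5.09), and 0.453 and 0.661 for Spp1. The compared cells were unlike groups, since cells with neither marker set were 6.65% of all cells in the medium and 63.1% in the large tumor. Whether macrophages with fewer than 5 markers were among the compared cells of the large tumor was not tested.

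Cd74 stood out, with 5329 CPM (4327 UMIs) in the medium-tumor macrophages and 51.3 CPM (3 UMIs, 10.6 to 150) in the large-tumor ones, although H2-Aa, H2-Ab1 and H2-Eb1 had 102, 80 and 56 UMIs there. Over all cells of the tables Cd74 had 332 CPM and 8.04 CPM. Ftl1 had 21225 and 3542 CPM in the macrophages and 7448 and 1086 CPM over all cells, and Gapdh 3052 and 565 CPM in the macrophages and 2563 and 360 over all cells. The levels over all cells include the macrophages, which held 4327 of the 6731 Cd74 UMIs of the medium tumor. In the compared cells Cd74 had 68.2 and 6.89 CPM, Ftl1 6749 and 1016, and Gapdh 2531 and 353. These differences were thus also present outside the cells chosen as macrophages, though smaller there for Cd74.

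**Figure D5:**
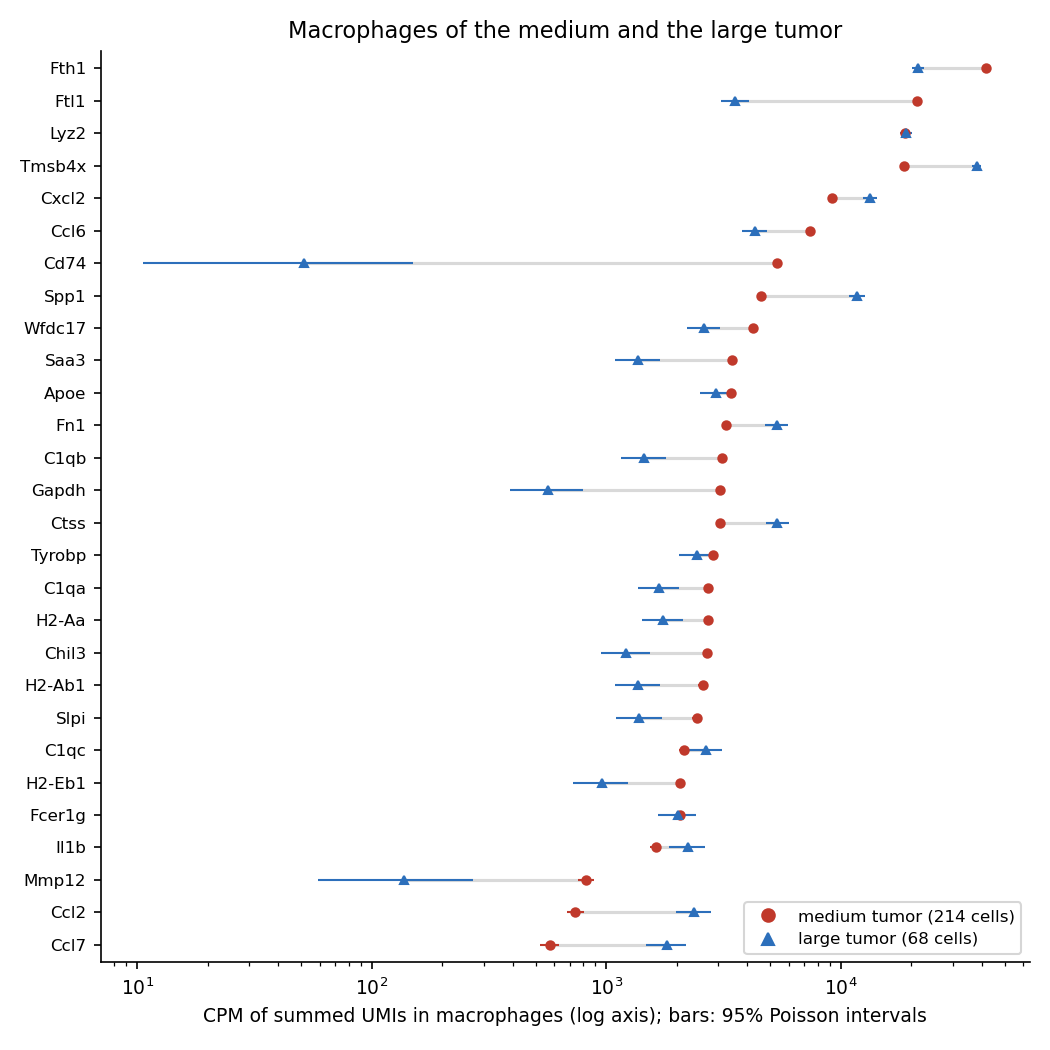
CPM (horizontal log axis) of 28 genes in the macrophages of the medium tumor (red circles, 214 cells) and the large tumor (blue triangles, 68 cells), with 95% Poisson intervals. Lyz2 and Fcer1g coincide, Cd74, Ftl1 and Gapdh are far lower in the large tumor, and Ccl2, Ccl7 and Spp1 are higher there.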

How the data were processed

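Single cells of 2 KPC tumors were captured with the 10x Genomics 3′ kit. The authors aligned reads and counted UMIs per gene and cell with CellRanger (mm10 in the submitters' processing notes, version not given in the sources used here) and deposited raw counts without normalization, 1 table per tumor with its 4 technical replicates pooled. How barcodes were told from empty droplets is not given in the sources used here.

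From these deposited counts, UMIs were summed over the macrophages and over the compared cells and scaled to 1000000 UMIs. Ratios used 1 UMI added to each sum, and a gene was called at a ratio of 2 or more or 0.5 or less when both groups together had at least 100 UMIs. Gene lists were counted over members with 100 UMIs in the compared cells alone, a filter chosen after the lists were first counted. Of 27775 gene rows, 39 symbols name several rows, which were kept apart, and 3 listed symbols were not among the rows. Macrophages were clustered with Seurat 5.3.0 (R 4.3.3, log normalization to 10000, 2000 variable genes, 10 principal components, resolution 0.8). No doublet caller was run, and the 103 cells with both marker sets were left out. TMM factors came from edgeR 4.0.16, thinning to 2500 UMIs and intervals from Python 3.11.15 with numpy 2.4.6 and scipy 1.17.1. The steps were tested on simulated data.

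Members and gene lists were chosen with earlier results of these data known. The rule for named genes takes the 22 rule genes, the 20 highest ratios with at least 200 UMIs in macrophages, the 10 highest levels, up to 4 members per list with the highest level plus members at 0 or in under 1% of cells, and the 10 leading genes of each cluster (10 CPM added to both sides, with a UMI in 25% or more of the cells in it). Other genes named in the text, such as Spi1, Ccl2, Ccl3, Ccl4, Nos2, Retnla, Il10, H2-DMa, Ciita, C3, C2, Mcm6, Csf1 and Il34, and the 2 motifs, were chosen after their values were seen. A few genes that the rule names, and part of the genotype, are not reported here.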

Additional observations from a re-analysis of the deposited data

How the results depend on the processing

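The macrophage share stayed inside its counting interval with 4 or 6 myeloid markers and after thinning, was 4.69% with fewer than 2 epithelial markers and 11.3% with no epithelial limit. Against the 187 cells with neither marker set alone, which hold far fewer UMIs, 2213 genes were tested, and 278 were higher and 324 lower. With no filter on low counts 6164 genes were higher. TMM gave 1206 higher and 2033 lower genes and a median shift of 0.29 on the log2 scale. No other alternative moved a count of genes by over 1.5 times, and the number of clusters ran from 3 to 5. Of 122 named genes followed under 10 alternatives, 9 called values changed sign, each against the cells with neither marker set (log2 ratios): Isg15 -0.81, Ifitm3 -0.32, Irf7 -0.59, Tgfb1 -0.24, Cdh1 1.76, Cldn4 0.26, Ly6d 0.42, Muc1 1.46, Cldn7 1.17. The cause was not tested. Of the other values, 827 stayed inside the counting interval of the reported ratio and 384 lay outside it. Leaving out the Prg4 cluster, chosen after the clusters were seen, gave 884 higher and 2527 lower genes, of which 798 and 2388 were also called with it. Requiring 100 UMIs in the compared cells alone, also chosen after seeing the data, gave 731 higher and 2633 lower genes. No replicates could be left out, since they are pooled in 1 table. No paired analysis was possible because the technical replicates are pooled and no test was made. The carcinoma profile subtracted in 1 alternative was 5.73% of the macrophage UMIs, as estimated from 16 carcinoma genes. With these 214 cells, a count of 0 allows up to 3.69 CPM.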

Other observations

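The 103 cells with both marker sets, left out of the comparison, held 4.5% of the UMIs of the medium tumor but larger shares of macrophage genes. They held 18.7% of the Osm UMIs, 17.8% of the Saa3 UMIs and 14.9% of the Cxcl2 UMIs. Their median of 6528 UMIs per cell compares with 3496.5 in macrophages and 6006.5 in the cells with epithelial markers. Whether they were doublets was not tested.

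Among ligands that act on epithelial cells, Hbegf had 91.4% and Areg 85% of its UMIs in the cells with epithelial markers, and macrophages held 0.958% and 8.18%, against 87.5% and 4% of all UMIs of the tumor. Among secreted proteins of macrophages, Slpi had 52.8% of its UMIs in the cells with epithelial markers and 29.8% in macrophages, while for Il6 macrophages held 51.9% of 239 UMIs. Over the 214 macrophages, Cxcl2 and Il1b had a Spearman correlation of 0.457, and Ccl2 and Ccl7 of 0.593. These are values within 1 table, with shared depth per cell.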
